A study of Mus musculus with 2 samples.

Results

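MicroRNAs are short RNAs cut from a hairpin in a longer transcript, first by Drosha with Dgcr8 in the nucleus and then by Dicer1 in the cytoplasm. An Argonaute protein carries the mature strand to messenger RNAs, and bases 2 to 8 of that strand, the seed, choose most targets. Many hairpins lie inside an intron of a host gene and are made from its transcript, so DNA methylation near a microRNA gene can belong to the host as much as to the hairpin. In fat, microRNAs are known as regulators of progenitor commitment, brown fat formation and lipid storage.

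The regions described here are the differentially methylated regions on chromosomes 1 to 19 that lie within 10 kb of a RefSeq gene of biotype miRNA. There were 370 of them among 33566 regions on these chromosomes and 34139 in the authors' deposited list. They lay near 300 of the 1136 microRNA genes (26.4%). The list compares whole-genome bisulfite libraries of 2 magnetically sorted mouse adipose progenitor populations of strain C57BL/6, with 1 library each: CD137+ cells, and PDGFRα+ cells (labelled CD140). Both populations came from subcutaneous or visceral fat, were grown and put through adipogenic differentiation, and received dexamethasone (DEX), a synthetic glucocorticoid. Which depot each library came from is not given in the sources used here, nor is the age, sex or pooling of the mice. As both libraries received dexamethasone, its effect cannot be told apart from the list. A marker check of the cells was not possible from a list of regions.

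Each region carries 1 signed score from the authors. Neither the sign nor the unit of the score is defined, so "negative" and "positive" are used as deposited. The list's title puts CD140 before CD137. Were the score a subtraction in that order, negative regions would be the less methylated ones in PDGFRα+ cells. Scores of wider regions are larger, so widths are given beside the scores the results turn on. Sequencing depth is unknown, and without replicates no score could be set against a replicate spread. Intervals on shares are 95% Wilson intervals and cover the counting of regions only. Positions are mm10, counted from 1. Distance runs from the nearest base of a region to the nearest base of the microRNA gene, which in RefSeq is the hairpin and not the start of the primary transcript.

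The regions cluster most around microRNA genes inside the HOX clusters, the gene arrays that encode position along the body axis. Loci in 3 separate HOX clusters encode the miR-196 family and a pair of loci encodes the miR-10 family. Their mature strands, shown because the loci of each family differ in position but hardly in product, are given with the seed in capitals.
mmu-miR-196a-5p, from both Mir196a-1 and Mir196a-2: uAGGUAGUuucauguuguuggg
mmu-miR-196b-5p, from Mir196b: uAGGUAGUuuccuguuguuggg
mmu-miR-10a-5p, from Mir10a: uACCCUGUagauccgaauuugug
mmu-miR-10b-5p, from Mir10b: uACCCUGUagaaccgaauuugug
Sequences are from RefSeq on GRCm38.p6, the assembly that mm10 names. Counting from the 5′ end, miR-196b differs from miR-196a by 1 substitution (A12C), and miR-10b from miR-10a by 1 (U12A), both outside the seed.

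The second group shown is miR-199a and miR-214 of mesenchymal cells, which have different seeds, again with the seed in capitals.
mmu-miR-199a-5p, from both Mir199a-1 and Mir199a-2: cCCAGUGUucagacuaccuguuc
mmu-miR-199a-3p, from both Mir199a-1 and Mir199a-2: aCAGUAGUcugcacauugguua
mmu-miR-214-3p, from Mir214: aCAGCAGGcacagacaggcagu
Of the 1136 microRNA genes 980 matched a RefSeq sequence, among them 268 of the 300 with a region.

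The 5 HOX-linked microRNA genes with regions held 39 regions, 26 negative and 13 positive, and the signs differed between the loci. Only the 10 kb on each side of a hairpin were read, not whole HOX clusters. Mir196a-1 (chromosome 11, 96265164 to 96265265, HoxB cluster) had 12 regions, all negative. Mir196a-2 (chromosome 15, 102973350 to 102973434, HoxC cluster) had 12 regions, all positive. These hairpins give the same 5p strand, so 1 mature sequence is encoded at a locus with 12 of 12 negative and at a locus with 12 of 12 positive regions. Over all regions of chromosomes 1 to 19, 67.3% were negative and 32.7% positive.

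Around Mir196a-1 the scores ran from -387 to -28.9, with a median of -68.4. The strongest, 561 bp wide at 96263888 to 96264448, ended 716 bp before the hairpin and lay in the long noncoding gene Gm53. The next, of score -164 over 369 bp, lay 1.33 kb before it. A weak region of 65 bp (score -41.6) overlapped the first 7 bases of the hairpin. Of the 12 regions 8 lay upstream in the direction of the hairpin, 1 overlapped it and 3 lay downstream, with none in the first 7.80 kb downstream.

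Around Mir196a-2 the scores ran from 38.8 to 291, with a median of 148, and 9 of the 12 were at least 100. An absolute score of 100 or more, called strong below, was reached by 15.6% of all regions on chromosomes 1 to 19. The strongest (424 bp at 102965394 to 102965817) lay 7.53 kb upstream and overlapped no RefSeq gene. The second, with a score of 257 over 360 bp, lay in Hoxc10, a gene known to differ in expression between fat depots. Regions downstream overlapped Hoxc9, with scores of 220.4 over 344 bp, 218 over 175 bp and 195 over 229 bp. The region nearest to the hairpin, 83 bp upstream, was among the weakest at 38.8. The regions around Mir196a-2 were somewhat wider than those around Mir196a-1, with median widths of 228 and 166 bp, and their median absolute score per bp was 0.664 against 0.457. The regions covered 3.25 and 3.09 kb, so nearly the same length of DNA differed at both loci.

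Mir196b (chromosome 6, 52230081 to 52230165, minus strand, HoxA cluster) had 9 regions, 8 of them negative. Scores ran from -274 to 87.4. Regions of -127 (165 bp) and -188 (222 bp) lay 11 and 287 bp upstream of the hairpin, the closest pair of strong regions at any HOX-linked microRNA. The 1 positive region lay 7.07 kb downstream, between negative regions, and the strongest, 487 bp wide, lay 9.51 kb downstream.

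Mir10a lies in Hoxb3 (chromosome 11, 96317165 to 96317274) and had 5 regions, all negative, of which 4 scored -100 or lower. Upstream of it lay regions of -198 (2.46 kb), -166 (2.21 kb) and -63.4 (1.73 kb), and downstream regions of -179 (5.96 kb) and -152 (9.42 kb). Its relative Mir10b, at Hoxd3 and Hoxd4 (chromosome 2, 74726070 to 74726137), had 1 short negative region of 68 bp and -69.9, 1.42 kb downstream. Mir615, the sixth HOX-linked microRNA gene and the second in HoxC, had no region within 10 kb. The nearest stood 11.4 kb away with a score of 217, positive like those around Mir196a-2.

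**Figure D1:**
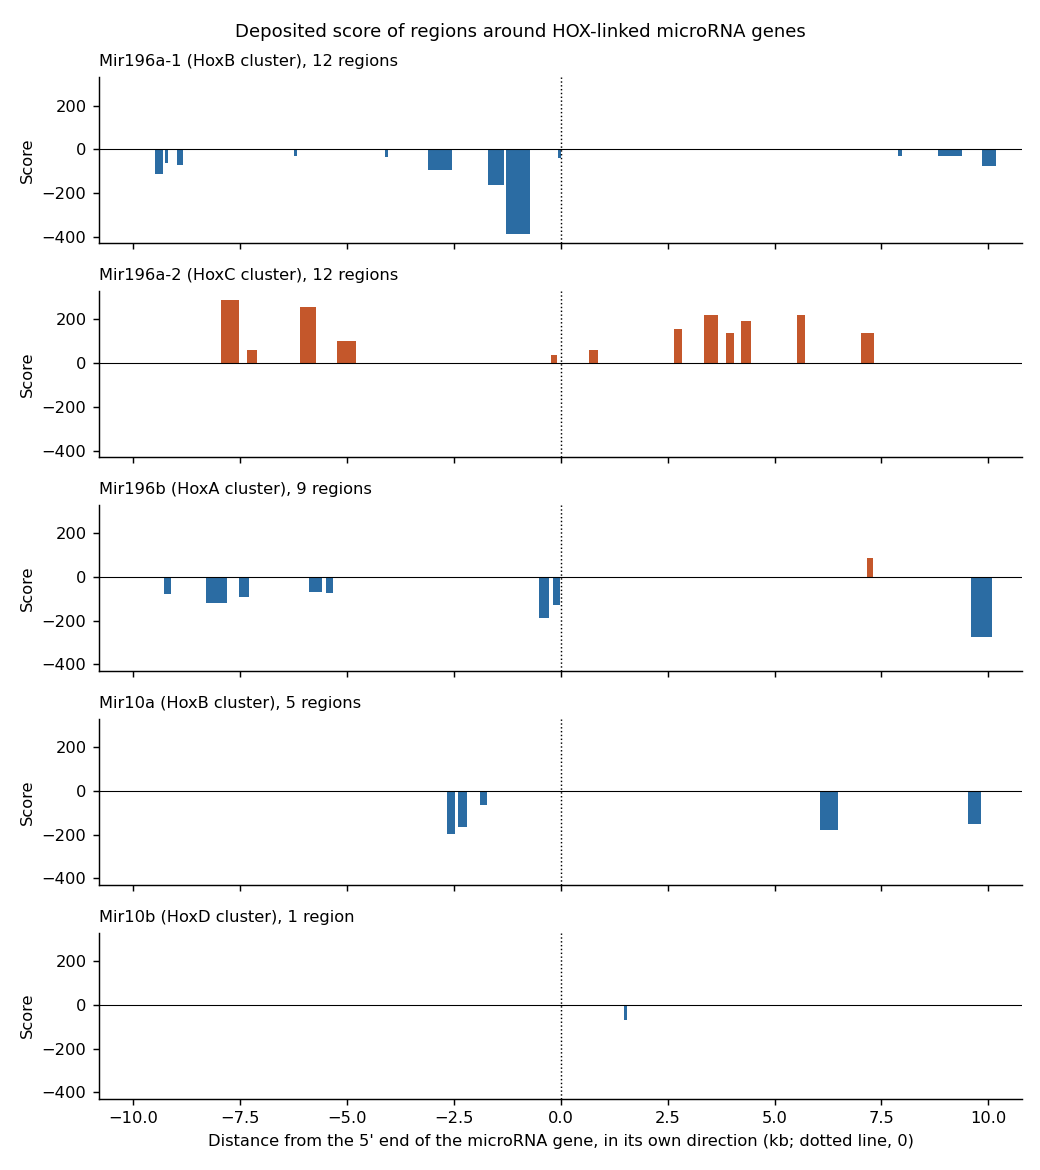
Deposited score (y axis, no unit given) of each region against its distance in kb from the 5′ end of the microRNA gene, in the direction of the hairpin, with bars as wide as the region (at least 0.08 kb). Bars around Mir196a-1, Mir10a and Mir10b all point down, those around Mir196a-2 all point up, and 8 of 9 around Mir196b point down.

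HOX-linked regions were stronger and wider than the others. Of the 39, 20 had an absolute score of at least 100, or 51.3% (36.2 to 66.1), against 15.6% of all regions. Their median width was 215 bp against 112 bp over all regions, and the median absolute score per bp was 0.520 against 0.431. Whether these loci stand apart from the rest of their HOX clusters was not tested.

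Over all 370 regions the score was negative in 268, or 72.4% (67.7 to 76.7), against 67.3% of all regions. The median absolute score was 59.2 (quartiles 39.0 and 100.2) and the median width 128 bp, against 49.7 and 112 bp. An absolute score of at least 100 was reached by 93 regions, or 25.1% (21.0 to 29.8). Without the HOX-linked regions the shares were 73.1% negative (68.1 to 77.6) and 22.1% at 100 or more (17.9 to 26.8). The excess of negative regions was in the weaker ones. Of the 93 strong regions 63.4% were negative, against 67.2% of the 5238 strong regions of the list, and of regions at least 100 bp wide 68.9% were negative, against 69.0%.

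MicroRNA genes often lie in protein-coding genes, and 70.0% of the 370 regions were inside one, against 51.3% of all regions. The share with a score of 100 or more was 16.7% (16.2 to 17.3) over all regions inside protein-coding genes and 29.0% (23.8 to 34.8) over the members inside one. Near other short RNA genes the share was 15.3% of 203 regions within 10 kb of a snoRNA gene and 15.7% of 217 regions near an snRNA gene. These sets were matched for neither CpG content nor coverage, and what part those have in the differences was not tested.

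Most regions lay outside the hairpins. Of the 370, 12 overlapped a microRNA gene, 30 lay within 1 kb, 149 between 1 and 5 kb, and 179 between 5 and 10 kb. These classes span unlike lengths of DNA and were not scaled to them, so the counts give no density. The negative share was 66.7% (39.1 to 86.2) among those that overlapped and 74.9% (68.0 to 80.6) at 5 to 10 kb, and the intervals of all distance classes overlapped. Upstream and downstream regions had nearly the same negative share, 73.0% of 163 and 73.4% of 169. Just inside the limit, at 9.98 kb, stood regions near Mir3067 (-45.5) and Mir1953 (-51.0), and just outside, at 10.02 kb, regions near Gm51297 (-53.5) and Mir7218 (-30.1).

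**Figure D2:**
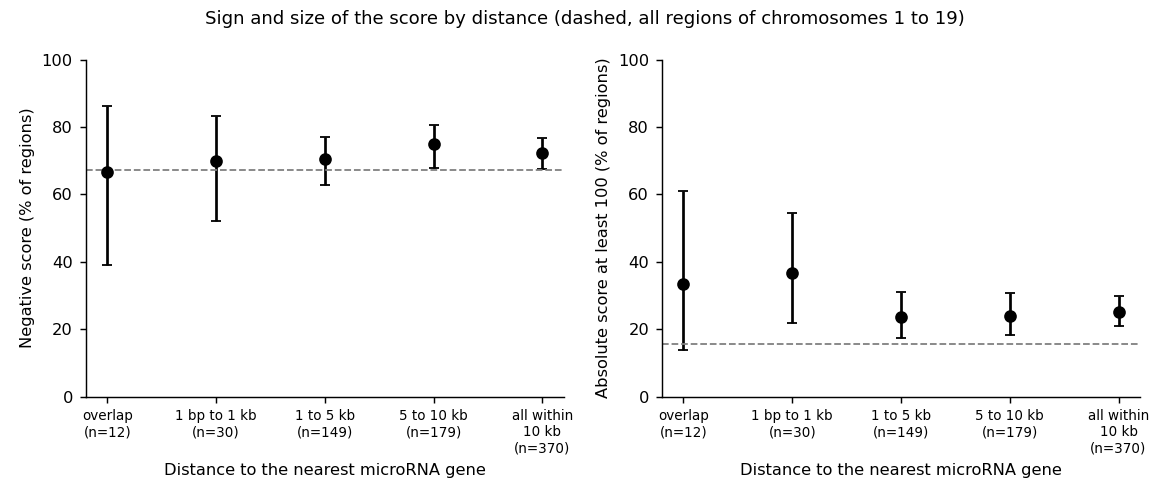
Share of regions with a negative score (left, %) and with an absolute score of at least 100 (right, %) by distance to the nearest microRNA gene, with 95% Wilson intervals and the number of regions under each point. The dashed lines mark all regions of chromosomes 1 to 19, at 67.3% and 15.6%.

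Of the 1136 microRNA genes 26.4% (23.9 to 29.0) had a region within 10 kb. The share was 14.0% of snoRNA genes, 17.9% of snRNA genes and 17.9% of tRNA genes, which are as short, and 42.2% of protein-coding and 35.5% of all RefSeq genes, which are longer. Of the 300 with a region, 227 had 1, 54 had 2, 13 had 3 and 6 had 4 or more. Only negative regions were found at 200 genes, only positive at 80 and both signs at 20. Genes that share a region are counted separately here. With 1 count per cluster of genes at most 10 kb apart, 174 loci had only negative and 59 only positive regions. Over all regions 67.3% were negative. Among the 73 genes with several regions, 47 were all negative, 6 all positive and 20 mixed.

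Besides the 4 HOX-linked genes, 2 microRNA genes had at least 4 regions, and they had opposite signs. Mir3109 lies in Anxa2, which encodes a calcium-dependent membrane-binding protein, and had 4 positive regions, with scores of 187 (536 bp, reaching 24 bases into the hairpin), 47.6, 82.3 and 23.2 from there downstream. Mir7014 lies in Ecm1, which encodes an extracellular matrix protein, and had 4 negative regions, all upstream, of -141, -74.8, -37.1 and -30.0. Genes with 3 regions of 1 sign were Mir3081 in the hedgehog coreceptor gene Boc (-119.7 to -28.4), Mir6407 (-151 to -91.0), Mir703 (-145 to -22.6), Mir7225 (-102 to -39.8), Mir7689 (-98.7 to -63.8) and, as the only positive one, Mir1941 in the keratin gene Krt80 (35.3 to 89.2).

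Families that share both a number and a seed and had regions at several loci kept 1 sign, apart from miR-196 and miR-190. Besides miR-10 with 6, those of 1 sign had few regions: 4 each for miR-199a and miR-208, 3 each for miR-148 and miR-7676, and 2 for let-7. Over all regions 67.3% were negative, so a few regions often share a sign anyway. Whether families agreed more often than that was not tested. The seed of a mature strand was shared by microRNA genes with regions at separate loci in 25 cases, counting each arm. Of these seeds 12 had only negative regions, 2 only positive and 11 both. Both arms of miR-208, miR-148 and miR-7676 are among the negative seeds and repeat the same regions. Both positive seeds were the 2 arms of miR-199a. Mir208a and Mir208b, which lie in the heart myosin genes Myh6 and Myh7, had 2 negative regions each, of -59.9 and -41.5 and of -80.1 and -39.1. Mir148a had 1 region (-44.2) and Mir148b 2 (-89.4 and -42.8). The miR-190 copies differed in sign, with 58.4 at Mir190a and -54.2 at Mir190b. The other mixed seeds joined microRNA genes of different names, such as Mir130a (-59.0) and Mir6389 (40.3), or Mir214 (31.6) and Mir761 (-26.9).

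**Figure D3:**
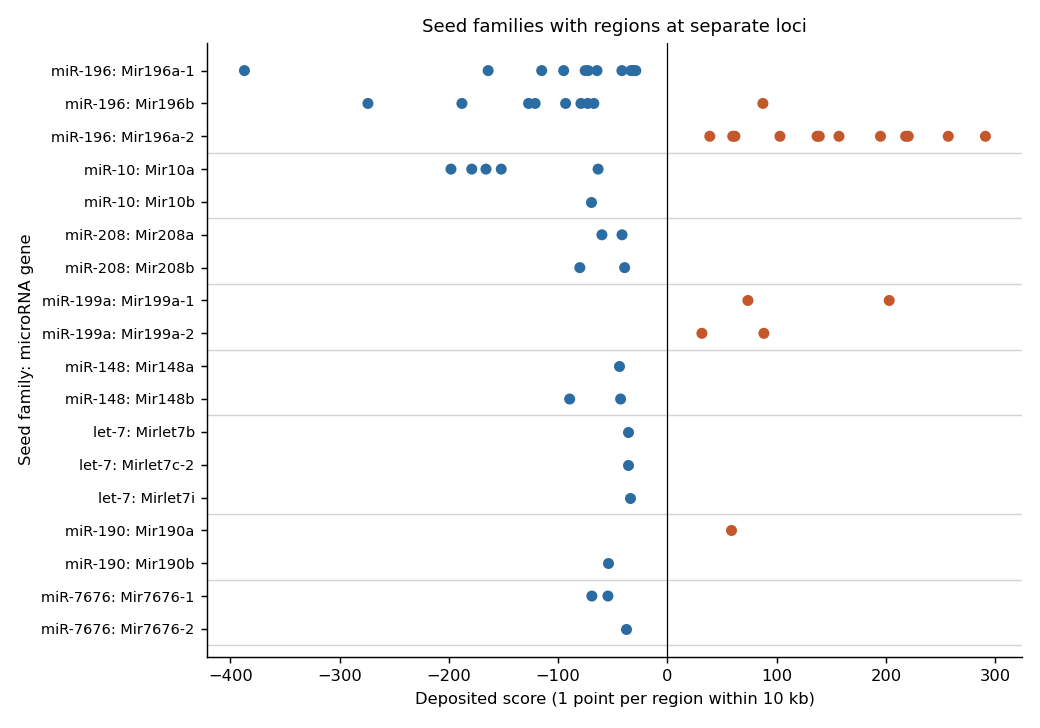
Deposited score (x axis) of every region within 10 kb of a microRNA gene, for families that share both a number in their name and a seed and have regions at separate loci (1 row per gene, 1 point per region). The rows of Mir196a-1 and Mir196a-2 lie on opposite sides of 0, while both miR-199a rows are positive and both miR-208 rows negative.

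Mesenchymal microRNAs were positive where they had regions. Mir199a-1, on the strand opposite to its host Dnm2 (chromosome 9, 21496495 to 21496564), had a region of 203 over only 119 bp lying 586 bp upstream, and one of 73.7 lying 1.27 kb downstream. The first had 1.71 score units per bp against a median of 0.431 over all regions. Mir199a-2 and Mir214 are made from 1 transcript, Dnm3os, opposite to Dnm3 on chromosome 1. Mir199a-2 had regions of 88.3 and 31.6 lying 8.49 and 1.77 kb upstream, and the second was also within 10 kb of Mir214. All 4 regions of this list were thus positive, against 32.7% of all regions. They came from 3 of 5 listed genes at 2 loci, so this list is short. Mir199b and Mir140, the other members, had no region.

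The listed mural, striated muscle, epithelial, blood and neural microRNAs had only negative regions where they had any. The mural pair Mir143 and Mir145a, made from the noncoding transcript Carmn of smooth muscle, shared regions of -71.7 and -47.3. In striated muscle, Mir499 in the myosin gene Myh7b had 1 region of -134, which with those of Mir208a and Mir208b made 3 of 9 genes.

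The epithelial pair Mir141 and Mir200c, whose family restrains the mesenchymal state, shared 1 region of -82.3 over 172 bp. It covered 65 of the 69 bases of the Mir200c hairpin, shown here with the covered bases in capitals.
Mir200c: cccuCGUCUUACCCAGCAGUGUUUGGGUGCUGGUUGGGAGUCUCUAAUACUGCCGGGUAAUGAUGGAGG
Both CpG sites of this hairpin are covered.

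Mir181a-1, whose hairpin was covered whole, had a region of -55.5, and Mir150 one of -44.9. They were 2 of the 6 blood microRNA genes matched by symbol among 9 listed, and the other 3 names matched no gene symbol on chromosomes 1 to 19. The neural list had 1 of 8 (Mir128-2, -43.0), and neither of the endothelial genes, Mir126a and Mir126b, had a region. With 2 of 2, 3 of 9, 2 of 7, 2 of 6 and 1 of 8 genes, these lists are short, and negative is also the more common sign in the whole list (67.3%).

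MicroRNAs linked to adipose tissue were near regions about as often as microRNA genes in general, with 8 of 32 genes against 26.4%. The 9 regions were 5 negative and 4 positive. Mir26a-1, which lies in Ctdspl and belongs to a family that promotes brown adipogenesis, had negative regions of -101 (95 bp) and -96.3 (483 bp) upstream. Mir27a, known to hold back adipogenesis, shares a short cluster with Mir23a and Mir24-2, and 1 region of 86.2 lay 5.86 kb from it. Mir34a, a p53 target raised in obesity, had a region of 127, and Mir182 and Mir328 had regions of 53.4 and 38.7. Mir130a, which represses Pparg, had 1 region of -59.0, and Mir143 and Mir145a were described above. No region was within 10 kb of Mir193b and Mir365-1, which act in brown adipocytes, or of Mir155, Mir378a, Mir455, Mir204, Mir21a, Mir33, Mir103-1, Mir103-2 or Mir107. The same held for Mir26a-2, Mir26b, Mir27b and Mir130b, relatives of genes named above. Also without a region were Mir30a, Mir30c-1, Mir30c-2, Mir32, Mir138-1, Mir138-2, Mir149, Mir203 and Mir494. Let-7 genes with regions were Mirlet7b and Mirlet7c-2 (1 shared, -36.3), Mirlet7i (-34.6) and Mirlet7a-2, which shares a region of -41.2 with Mir100.

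**Figure D4:**
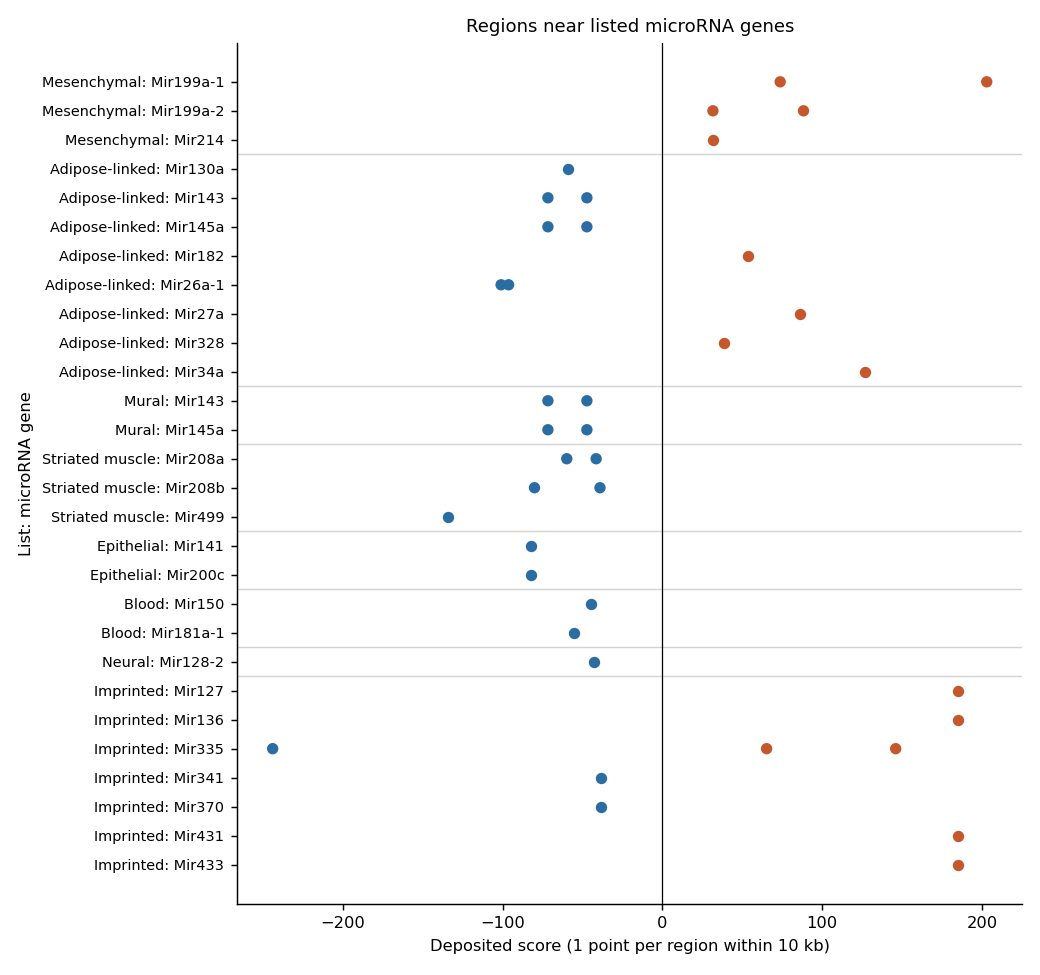
Deposited score (x axis) of each region within 10 kb of the listed microRNA genes (1 row per gene and list, 1 point per region; neighbouring genes repeat a shared region, and Mir143 and Mir145a stand in 2 lists). Mesenchymal rows are positive, mural, muscle, epithelial, blood and neural rows are negative, and the adipose-linked and imprinted rows hold both signs.

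Imprinted microRNAs, which are expressed from 1 parental copy, had regions near 7 of 18 genes, against 26.4% of all microRNA genes, but these were only 5 regions. Mir335 lies in Mest, a paternally expressed gene that rises in expanding fat, and the regions near Mir335 had both signs. Regions of 146 (189 bp) and 65.2 (132 bp) lay 5.78 and 3.86 kb upstream of the hairpin, and one of -244 (274 bp at chromosome 6, 30737908 to 30738181) lay 3.12 kb upstream. The negative region crossed a start of Mest. The 250 bases before that start (chr6:30737800-30738049, plus strand, RefSeq on GRCm38.p6) are shown with the 142 bases inside the region in capitals.
Mest: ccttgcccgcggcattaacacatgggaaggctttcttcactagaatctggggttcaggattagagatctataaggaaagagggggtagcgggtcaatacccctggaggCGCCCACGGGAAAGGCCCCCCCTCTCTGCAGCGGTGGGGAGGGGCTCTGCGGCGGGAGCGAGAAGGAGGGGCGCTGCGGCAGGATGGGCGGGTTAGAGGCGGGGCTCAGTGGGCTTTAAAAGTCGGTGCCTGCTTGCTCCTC
This stretch holds 14 CpG sites (CG, the same on both strands), 11 of them inside the region. Of all 31396 such stretches on these chromosomes 29.9% held at least as many, the median was 6.00, and 92.4% held 1 or more.

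In the imprinted Dlk1 to Dio3 domain of chromosome 12, 1 region of 185 (333 bp, 109594260 to 109594592) lay within Rtl1 and within 10 kb of 13 microRNA genes, the most for any region. They lie within Rtl1, a gene of retroviral origin needed in the placenta, and include Mir127, Mir136, Mir431, Mir433 and Mir434. Their strand relative to Rtl1 was not determined, so Rtl1 is a host by position only. It covered 87 of the 94 bases of Mir434, with all 5 of its CpG sites. Weak negative regions stood on both sides, one of -31.0 near Mir770 and Mir673 and one of -38.6 near Mir341, Mir1188 and Mir370. Mir379, Mir411, Mir134, Mir154, Mir376a, Mir377 and Mir410 of the same domain had none, nor had Mir675 of H19, Mir483 of Igf2, or Mir296 and Mir298.

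MicroRNA genes of a cluster often shared a region, so signs within a cluster are not independent. Of 88 clusters, in which genes stand at most 10 kb apart, 21 had a region: 15 only negative, 5 only positive and the Rtl1 cluster both. Besides those above, Mir132 and Mir212 had regions of -341 (268 bp) and -173 (211 bp). The stronger lay in Hic1, which encodes a transcriptional repressor that marks quiescent mesenchymal progenitors, 7.33 kb upstream of Mir212. Mir29a and Mir29b-1, whose products target collagen messages, shared a region of -97.6. Mir182, Mir183 and Mir96, a cluster of sensory cells, shared the positive region of 53.4. Mir193a and Mir365-2, which stand more than 10 kb apart and so form no cluster here, both had the region of -118 that lies between them. Mir216b and Mir216c, made in the pancreas, had regions of -56.0 and -19.3, and the neighbouring Mir216a shares them. Mir338 and Mir3065 in the kinase gene Aatk shared a region of -60.2. Mir7220 and Mir6982 in Camk2a shared none, with regions of -170.4 and -80.7. The large cluster in Sfmbt2 had 11 of its 72 microRNA genes near a single weak region (-23.4).

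At Mir2861 and Mir3960, a pair of microRNAs described in osteoblasts, 1 region of 205 (204 bp) ran over the first 16 bases of the Mir3960 hairpin. Both hairpins lie just before a start of the kinase gene Cdk9. The 250 bases before that start (chr2:32712785-32713034, minus strand, RefSeq on GRCm38.p6) are shown with the 78 bases inside the region in capitals.
Cdk9: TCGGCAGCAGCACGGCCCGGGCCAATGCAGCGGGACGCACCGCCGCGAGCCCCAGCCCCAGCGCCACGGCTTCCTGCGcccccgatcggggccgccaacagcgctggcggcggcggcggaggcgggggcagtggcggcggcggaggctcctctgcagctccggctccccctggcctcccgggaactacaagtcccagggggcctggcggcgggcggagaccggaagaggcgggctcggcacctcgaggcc
It holds 32 CpG sites, 11 of them in the region, and 4.74% of all such stretches held at least as many. The region also covered 101 of the 250 bases before a start of Gm33457 on the plus strand, with 13 CpG sites. Among the 370 regions, 11 touched such a stretch, for 11 genes, and 6 of them were negative. The share of all regions that touch such a stretch was not computed, so these counts cannot be called high or low.

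The other hairpins overlapped by a region of absolute score at least 100 were Mir7687, covered whole by a region of 154 (196 bp) in Gse1, and Mir434 and Mir3109, given above. The remaining overlapping regions, at Mir8110 (-95.9), Mir7012 (-49.5), Mir680-1 (-46.1), Mir208b (-39.1) and Mir1899 (-36.0), were weaker.

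By host, 214 of the 300 microRNA genes with a region lay in a protein-coding gene (71.3%), close to the 68.7% of all microRNA genes, and 27.4% of hosted against 24.2% of other microRNA genes had a region. Host here means position only. The host was on the same strand for 135 and on the opposite strand for 12, and the others had an unknown strand or several hosts. Regions whose nearest microRNA gene had only a long noncoding host were negative in 39 of 43, or 90.7% (78.4 to 96.3), and without HOX-linked genes in 19 of 22, or 86.4% (66.7 to 95.3). With a protein-coding host 73.2% of 257 were negative (67.4 to 78.2). With no host 58.6% of 70 were negative (46.9 to 69.4), and without HOX-linked genes 70.7% of 58 (58.0 to 80.8).

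One host is the gene of a sorted antigen. Mir7025 lies in Pdgfra, which encodes the PDGF receptor that the CD140 sort uses, and had a region of 109 (322 bp) 1.86 kb upstream and one of -137 (148 bp) 9.04 kb downstream, on either side of the hairpin. Developmental regulators among the hosts were Hmga2, a growth gene of mesenchymal cells (Mir763, -58.8), Zfhx3 (Mir3108, -100.4), Foxp1 (Gm51278, -47.8 and -45.9), Slit3 (Mir218-2, 20.3) and Rest, a repressor of neuronal genes (Mir5098, -133).

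Several microRNA genes stood within 1 kb of a strong region. Mir698, in Inpp5b, which encodes an inositol phosphatase, had a region of -173 (456 bp) only 430 bp upstream. Mir7656 in the sodium-proton exchanger gene Slc9a9 had one of -114 (247 bp) 29 bp upstream and a weak one of -30.5 farther off, and Mir5103 one of -109 (193 bp) 142 bp downstream. A positive region of 147 (257 bp) lay 289 bp downstream of Gm51277 in Napepld, the gene of an enzyme of endocannabinoid synthesis, with a weak negative one (-39.7) at 6.45 kb. Mir7212 in Retreg1, a receptor gene for autophagy of the endoplasmic reticulum, had one of -122 (171 bp) 251 bp downstream and one of -37.1 upstream.

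Some hosted microRNA genes had strong regions of both signs within 10 kb, as Mir7025 in Pdgfra and Mir335 in Mest did. Mir6926 in Sgsm2 had 147 (147 bp) and -185 (145 bp), both downstream at 4.41 and 2.91 kb. Mir7023 in Pik3cd, a phosphoinositide kinase gene of leukocytes, had -127 (185 bp) downstream and 108 (129 bp) upstream. At Mir6926 both signs lay on the same side of the hairpin, at Mir7023 on opposite sides.

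Further hosted microRNA genes had strong regions of either sign within 10 kb. Mir711 in the collagen gene Col7a1 had regions of -171 (160 bp) and -36.6. Mir28a in Lpp, which encodes a focal adhesion protein, had -107 (360 bp), Mir7227 in the chromatin remodeller gene Arid1a -117 (143 bp) and Mir6391 in the transporter gene Abcc4 -113 (236 bp). Positive regions stood at Mir6977 in the receptor phosphatase gene Ptprs (159 over 174 bp), Mir5130 in Kctd12 (161 over 322 bp), Mir5616 in Ctnnbip1, an inhibitor of beta-catenin (131 over 429 bp, with a second region of -47.8), and Mir211 in the melanocyte channel gene Trpm1 (119.6 over 146 bp).

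The strongest regions outside the HOX loci lay mostly inside protein-coding genes. The most negative of the 370 was one of -420.3 over 1004 bp in Ccdc71 (chromosome 9, 108462182 to 108463185), 3.02 kb from Gm51295. It was followed, after Mir196a-1 and Hic1, by a region of -288 in Cbfa2t3, a transcriptional corepressor gene 8.34 kb from Mir6396. Regions of -235 in Slc25a29 near Mir345, -227 in Mtarc2 (the host of Mir1981), -208 in Wdfy2 (the host of Mir6541) and -201 in Tbkbp1 (the host of Mir7235) completed the 10 most negative with those at Mir196b and Mir335. Among the 10 most positive, 5 were at Mir196a-2. The others were at Mir3960, Mir199a-1, Mir3109 and Mir434, and at Mir7049 in the kinase gene Pak4 (199 over 224 bp).

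Genes of the microRNA machinery, listed for comparison, had regions at 14 of 20 genes, counting the gene and 10 kb on each side, against 42.2% of protein-coding genes. Their median length was 57.8 kb against 17.5 kb, and length was not matched. Of their 32 regions 27 were negative, where 67.3% of all regions are, with a median absolute score of 45.2, below that of all regions (49.7). Drosha, the nuclear hairpin endonuclease, had 4 negative regions and 1 positive (-83.2 to 32.6). Dicer1 had 2 negative (-69.9 and -66.8) and Ago2, the Argonaute that cuts its target, 2 negative (-108 and -51.1). Dis3l2, which degrades let-7 precursors marked by uridines, had 5 negative regions (-76.7 to -20.0), and Tut7, which adds those uridines, had the strongest of the list, -121 over 449 bp. Xpo5, which exports hairpins, and Prkra, a Dicer1 partner, had 1 positive region each (66.5 and 68.5). Tnrc6a had regions of both signs (45.8, 31.7, -33.7, -43.3 and -50.8). Only negative regions stood at Tnrc6b (-51.5, -44.5 and -29.0), Tnrc6c (-61.5 and -39.0), Lin28b (-32.4 and -27.1), Ddx17 (-98.7), Ddx5 (-34.5) and Tut4 (-25.2). Dgcr8, Tarbp2, Ago1, Ago3, Ago4 and Lin28a had none.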

How the data were processed

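The data are 1 deposited list of regions from whole-genome bisulfite sequencing of 2 libraries (1 CD137, 1 CD140). Its only measurement is a signed score per region, as deposited by the authors. Coordinates are mm10, as named in the submitters' processing notes. Which aligner and region caller were used, with what thresholds and coverage, is not given in the sources used here. Read as BED, the list's regions began at a base of a CpG in 235 of 235 regions whose first base lay in a RefSeq promoter sequence and ended at one in 268 of 268, which fixes the coordinates.

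Regions of chromosomes 1 to 19 were joined to RefSeq genes (GRCm38.p6) of biotype miRNA when their nearest bases were at most 10000 bp apart. Each region was counted once, with its nearest microRNA gene. A region was called strong at an absolute score of at least 100, and hosts are genes that contain the whole microRNA gene. Strand came from the RefSeq sequence table. On simulated data, 200 of 200 planted regions were placed at the right distance. With 1 library per group no test was run and no p-value computed. Counts, shares and medians are set beside those of all regions. Named are the HOX-linked genes, the 10 most positive and 10 most negative regions, overlapping regions of absolute score at least 100, genes with 4 or more regions and listed genes with a region. Other genes named (those with 3 regions, of families, clusters, hosts or close distance) were chosen after their values were seen. The members and lists were chosen with earlier results of these data known. Alternatives were distances of 1, 5 and 20 kb, score and width minima of 100 and 100 bp, leaving out HOX-linked genes, leaving out hosted genes, and 1 count per cluster, the last chosen after seeing the data. Python 3.11.15, pandas 2.3.3, numpy 2.4.6 and scipy 1.17.1 were used.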

Additional observations from a re-analysis of the deposited data

How the results depend on the processing

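The share of negative regions (72.4%) was between 68.9% and 73.1% under 6 of the 7 alternatives tried for it. It was 63.4% among regions of absolute score at least 100, where 67.2% of all such regions of the list were negative. The median absolute score (59.2) was between 55.5 and 61.8 under 5 alternatives, 141 with that minimum and 80.1 for regions at least 100 bp wide, both by construction. The counts follow the setting. Against 370 regions and 300 microRNA genes, of which 280 had only 1 sign, there were 191, 175 and 171 within 5 kb, 740, 509 and 436 within 20 kb, and 42, 44 and 44 within 1 kb. With absolute scores of at least 100 they were 93, 86 and 82, with widths of at least 100 bp 235, 196 and 184, and with microRNA genes under no protein-coding gene 113, 86 and 80. Without HOX-linked genes they were 331, 295 and 276. With 1 count per cluster, 254 loci had a region and 233 had 1 sign. No paired analysis was possible because each group has 1 library. The depth is unknown, so no region's own error can be given, and the score does not separate a large difference from a wide region.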

Other observations

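MicroRNA genes on the X chromosome lie outside the set described above and had regions at a lower share. Of 92 such genes 7 had a region within 10 kb (7.61%), against 26.4% on chromosomes 1 to 19, and the 6 regions were weak, 4 of them negative. Mir221 and Mir222, which act in proliferating and vascular cells, shared a region of -34.0 over 353 bp, 1.29 kb from Mir222. The others were at Mir5617 (30.5), Mir717 (-39.6), Mir1906-2 (27.9), Mir3475 (-23.9) and Mir3620 (-40.2). The X chromosome had only 557 of the 34139 regions of the list. The share of all X genes with a region was not computed, so the lower share cannot be called particular to microRNA genes. The sex of the mice is not given in the sources used here.

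Of 919 hairpin sequences 67.8% held a CpG site, and of the 255 near a region 72.2% did. The hairpins of Mir196a-1, Mir196a-2, Mir196b, Mir10a and Mir10b held 2, 1, 3, 3 and 2 sites.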
